A study of Mus musculus with 8 samples.

Results

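The IκB and NF-κB family was followed in mouse macrophages by its 10 listed genes, found by symbol among the 22165 genes of the deposited count table. The members are the nuclear IκB genes Nfkbiz, Bcl3 and Nfkbid, the cytoplasmic inhibitor genes Nfkbia, Nfkbib and Nfkbie, and the subunit genes Rel, Rela, Nfkb1 and Nfkb2. All 10 were counted and all 10 passed the filter on low counts, which left 11079 genes for testing. Bone marrow cells of C57BL/6 mice had been grown into macrophages for 7 days with M-CSF, the macrophage growth factor, and poly(A) RNA was read from transcript 3′ ends. The 4 groups, of 2 libraries each, were Nrf2-/- cells given 250 µM dimethyl itaconate (DI) for 12 h, Nrf2-/- cells without DI, wild-type cells given the same DI treatment and wild-type cells without DI. DI is an electrophilic ester of itaconate, and Nrf2 (gene Nfe2l2) is the transcription factor that switches on antioxidant genes. By its title, the study asks how electrophilic stress bears on inflammation that runs through IκBζ, the product of Nfkbiz. DI is the single treatment in the labels, so these are macrophages without a labelled microbial stimulus. The knockout mice came from the Jackson Laboratory, and the labels do not say whether the wild-type mice were their littermates.

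NF-κB is a family of dimeric transcription factors that switch on inflammatory genes after signals such as bacterial lipopolysaccharide. In resting cells the cytoplasmic inhibitors IκBα, IκBβ and IκBε (Nfkbia, Nfkbib, Nfkbie) hold the dimers out of the nucleus until the IκB kinase marks them for destruction. The nuclear members IκBζ, Bcl-3 and IκBNS (Nfkbiz, Bcl3, Nfkbid) bind NF-κB on DNA instead and can raise or lower the transcription of chosen genes. In macrophages IκBζ is known as an inducible protein needed for a second wave of inflammatory genes, such as Il6 and Il12b. Several family genes are themselves NF-κB targets.

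Promoter windows of the members were searched for the κB motif, the DNA element that NF-κB dimers bind. RefSeq promoter windows of 300 bases (250 before to 50 after a transcript start, GRCm38.p6) matched 8 of the 10 members by symbol in 12 windows. Nfkbiz and Nfkb1 were not matched. The κB motif, 10 bases long and searched on both strands, was present in 8 of these windows, from 6 members, and in 4.51% of all 32851 windows in the table. The 4 sequences below belong to members whose mRNA changed with DI in wild-type cells. Each is written 5′ to 3′ on the gene's own strand with the motif matches in capitals. Bcl3 is at chr7:19822706-19823005 (minus strand), Nfkb2 at chr19:46304487-46304786 (plus strand), Rel at chr11:23770920-23771219 (minus strand) and Nfkbie at chr17:45555450-45555749 (plus strand).
Bcl3: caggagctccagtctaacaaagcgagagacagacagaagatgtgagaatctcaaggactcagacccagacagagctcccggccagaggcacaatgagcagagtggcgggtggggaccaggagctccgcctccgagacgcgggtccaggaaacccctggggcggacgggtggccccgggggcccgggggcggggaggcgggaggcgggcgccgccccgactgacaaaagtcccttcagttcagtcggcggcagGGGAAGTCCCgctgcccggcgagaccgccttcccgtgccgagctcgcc
Nfkb2: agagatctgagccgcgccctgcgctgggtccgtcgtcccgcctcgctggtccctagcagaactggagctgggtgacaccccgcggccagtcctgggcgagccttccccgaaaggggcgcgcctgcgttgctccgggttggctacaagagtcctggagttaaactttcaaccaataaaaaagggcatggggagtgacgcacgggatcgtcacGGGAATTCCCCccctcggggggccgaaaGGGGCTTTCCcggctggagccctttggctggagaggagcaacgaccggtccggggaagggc
Rel: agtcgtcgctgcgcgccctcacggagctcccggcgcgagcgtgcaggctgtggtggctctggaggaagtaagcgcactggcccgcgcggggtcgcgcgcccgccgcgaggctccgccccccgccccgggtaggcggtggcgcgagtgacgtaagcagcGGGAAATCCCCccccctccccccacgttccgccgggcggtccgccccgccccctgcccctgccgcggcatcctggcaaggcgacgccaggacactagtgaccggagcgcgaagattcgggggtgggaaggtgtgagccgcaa
Nfkbie: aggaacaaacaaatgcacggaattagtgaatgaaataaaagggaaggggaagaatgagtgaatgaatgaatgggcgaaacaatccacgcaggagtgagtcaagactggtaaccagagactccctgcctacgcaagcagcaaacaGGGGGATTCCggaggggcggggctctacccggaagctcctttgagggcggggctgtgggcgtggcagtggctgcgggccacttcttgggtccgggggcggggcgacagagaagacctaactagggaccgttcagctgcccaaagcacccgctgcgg
The match in Bcl3 begins at position 2 after the start, and that in Nfkbie at position -106. Rel holds a pair of overlapping matches that begin at positions -92 and -91, read as 1 run of capitals. The Nfkb2 window shown has overlapping matches at -39 and -38 and a further one at -11. The 2 other windows of Nfkb2, not shown, hold matches at -236 and 10 and at -225 from their own starts. These 2 windows overlap, and the matches at 10 and -225 are the same bases. Both windows are among the 8 with a match, so this site was counted in each of them. Matches were present in the windows of genes that were higher with DI (Bcl3, Nfkb2) and of genes that were lower (Rel, Nfkbie). They were also present in Nfkbia and in 1 window of Nfkbid, neither of which passed the test, and absent from the windows of Nfkbib and Rela. A second motif, the antioxidant response element TGACNNNGC, to which Nrf2 binds, was found on either strand in 12.4% of all windows and among the members in Nfkbia alone.

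Total counts were 5554288 to 15680671 per library, and within each group Pearson's r of log2 CPM across genes was 0.973 to 0.980. Whether the 2 libraries of each group stem from different mice is not in the labels, so the p-values cover only library-to-library spread, which may be technical. Nfe2l2 stood at 40.2 to 88.1 CPM in the knockout libraries and 230 to 454 CPM in the wild-type libraries, and 3′ tags can be counted outside the deleted exons, so this level is a limited check of the genotype. All 8 macrophage markers, among them Adgre1, Csf1r and Cd68, were above 10 CPM in at least 1 library. The summed level of 7 stromal markers (collagens, Dcn, Sparc, Cxcl12 and Lum, with Lum at 0 throughout) was 61.6 to 73.0 CPM in knockout libraries and 145 to 203 CPM in wild-type libraries. Markers of dendritic cells, lymphocytes, mast cells and erythroid cells each stayed under 10 CPM. Of 8 neutrophil markers 4 did so, while S100a8 and S100a9, calcium-binding proteins of myeloid cells, were at 66.7 to 138 and 105 to 204 CPM. The remaining neutrophil markers, Ngp and Ltf, were at 19.5 to 34.6 and 9.27 to 19.7 CPM. Levels below are counts scaled by library total (CPM), and in bulk RNA fewer cells of a type and less RNA per cell cannot be told apart. Differences are log2 fold changes ± standard error, and p-values were adjusted by the Benjamini-Hochberg method over the 11079 genes after the quasi-likelihood test of edgeR, with a call at an adjusted p under 0.05.

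**Figure D1:**
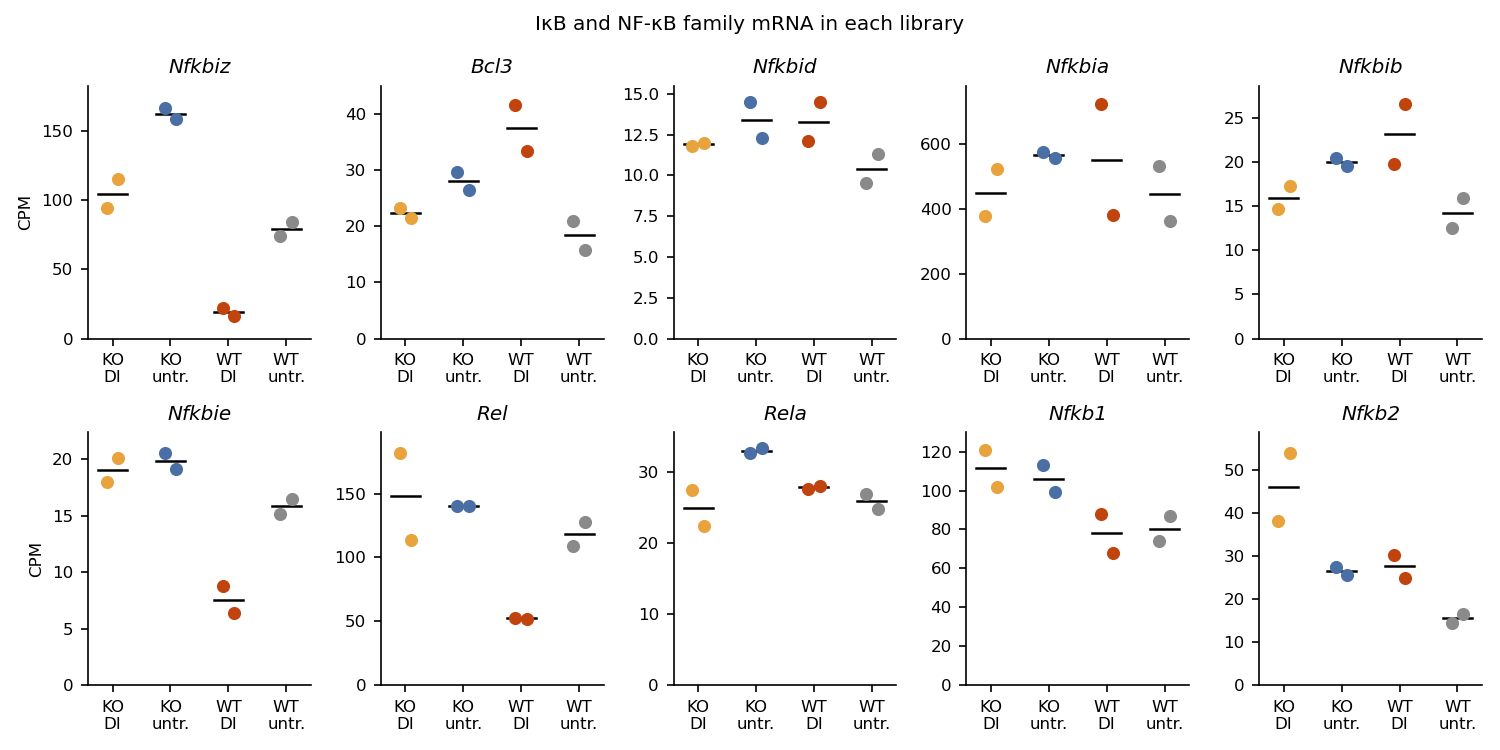
CPM of the 10 members (vertical axes, each from 0) in every library, with Nrf2 knockout (KO) left of wild type (WT) and DI left of untreated (untr.); points are libraries and bars are group means (n = 2). Nfkbiz lies at 16.3 and 21.8 CPM in wild-type DI libraries, below the other 6 libraries, and in untreated cells each member has both knockout libraries above both wild-type libraries.

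In wild-type macrophages DI lowered Nfkbiz, Nfkbie and Rel and raised Bcl3 and Nfkb2. Thus 5 of the 10 members passed, 2 higher and 3 lower, where 15.2% of all genes tested passed (6.51% higher and 8.68% lower). Among the nuclear IκBs Nfkbiz fell and Bcl3 rose, among the subunits Rel fell and Nfkb2 rose, and of the cytoplasmic inhibitors Nfkbie alone passed. The count of called members was 3 without either wild-type DI library and 1, Nfkbiz, without wild-type untreated replicate 2.

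Nfkbiz (ENSMUSG00000035356, chromosome 16, 55811375 to 55838899, minus strand, mm10) had 21.8 and 16.3 CPM in the wild-type DI libraries, against 73.9 and 84.3 CPM in wild-type untreated libraries. Both DI libraries were far below both untreated ones, with 139 and 175 counts against 846 and 1303 counts. The mean was 19.1 ± 3.91 CPM with DI and 79.1 ± 7.34 CPM without (SD, n = 2 each). Nfkbiz was 4.17-fold lower (log2 fold change -2.06 ± 0.24, edgeR adjusted p = 0.000193). This call was kept in all 8 fits that left out 1 library.

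Bcl3, the nuclear IκB that partners p50 and p52 dimers (ENSMUSG00000053175, chromosome 7, 19808462 to 19822770, minus strand), moved the other way. Its level was 41.6 and 33.5 CPM in wild-type DI libraries, against 21.0 and 15.8 CPM in wild-type untreated libraries, without overlap. The log2 fold change was 1.03 ± 0.24 (edgeR adjusted p = 0.0118), and the call was lost without wild-type DI replicate 1 (adjusted p = 0.0614) or wild-type untreated replicate 2 (adjusted p = 0.11). Nfkbid, whose product IκBNS is known to restrain some late inflammatory genes (ENSMUSG00000036931, chromosome 7, 30421732 to 30428746, plus strand), had 12.1 and 14.5 CPM with DI against 9.52 and 11.3 CPM untreated. Those values do not overlap, but the log2 difference of 0.36 did not pass. Nfkbid was counted thinly, with 77 to 175 counts per library.

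Among the cytoplasmic inhibitors, Nfkbie (ENSMUSG00000023947, chromosome 17, 45555703 to 45563169, plus strand) stood at 8.80 and 6.34 CPM in wild-type DI libraries, against 15.2 and 16.5 CPM in wild-type untreated libraries. Both DI libraries were lower, and the log2 fold change was -1.09 ± 0.25 (edgeR adjusted p = 0.0123). Nfkbie lost its call without wild-type DI replicate 2 (adjusted p = 0.112) or wild-type untreated replicate 2 (adjusted p = 0.0657). Nfkbib (ENSMUSG00000030595, chromosome 7, 28758251 to 28767512, minus strand) had 19.8 and 26.6 CPM with DI against 12.6 and 16.0 CPM untreated. These did not overlap either, but the difference of 0.70 missed the threshold at edgeR adjusted p = 0.0712. Ccer2 covers the 3′ end of Nfkbib on the opposite strand, with 7 counts over all libraries. Nfkbia, which encodes the fast-turnover inhibitor IκBα (ENSMUSG00000021025, chromosome 12, 55489410 to 55492647, minus strand), was spread widely within groups, at 724 and 380 CPM with DI and 531 and 362 CPM untreated. The groups overlapped, and the log2 difference of 0.30 did not pass.

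Of the subunits, Rel, which encodes c-Rel (ENSMUSG00000020275, chromosome 11, 23736847 to 23770970, minus strand), had 52.9 and 52.0 CPM in wild-type DI libraries, against 109 and 128 CPM in wild-type untreated libraries. Its log2 fold change was -1.17 ± 0.25 (edgeR adjusted p = 0.00858), lost only without wild-type untreated replicate 2 (adjusted p = 0.0601) among the fits that left out 1 library. Nfkb2, the precursor of the non-canonical subunit p52 (ENSMUSG00000025225, chromosome 19, 46304320 to 46312385, plus strand), had 30.2 and 25 CPM with DI against 14.5 and 16.5 CPM untreated. Every DI library was above every untreated one, with a log2 fold change of 0.82 ± 0.24 (edgeR adjusted p = 0.0398). The Nfkb2 call was lost in 6 of 8 fits without 1 library, those without any wild-type library or either knockout untreated library, at adjusted p up to 0.157. The 3′ end of Nfkb2 is covered by Psd on the opposite strand, which had 1 count in all libraries together. Rela (ENSMUSG00000024927, chromosome 19, 5637483 to 5648130, plus strand), the p65 subunit, differed by 0.11 and Nfkb1 (ENSMUSG00000028163, chromosome 3, 135584655 to 135691547, minus strand), the p50 precursor, by -0.05, and neither passed. The mitochondrial share of counts, a sign of RNA and cell quality, was 1.59 and 2.10% in wild-type DI libraries and 1.30 and 1.37% in wild-type untreated libraries. The summed level of the neutrophil markers was 250 and 322 CPM with DI against 373 and 383 CPM untreated, lower without overlap, with a median log2 difference of -0.72 and 0 of 7 tested markers called. Of the 8 macrophage markers 3 were called lower, Itgam (-1.18), Fcgr1 (-0.96) and Cd14 (-1.68), where 8.68% of all genes were. The Itgam call was lost without wild-type untreated replicate 1, and that of Fcgr1 without replicate 2 of either wild-type group. The summed level of the 8 overlapped, at 4150 and 4725 CPM with DI and 4465 and 4232 CPM untreated. The part of these shifts in the family's values was not tested.

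In Nrf2 knockout macrophages no member passed with DI in edgeR, where 8.48% of all genes did. At an unadjusted p under 0.05 in edgeR there were 2 members, where 26.4% of all genes had such a p. DESeq2 called 1 member, Nfkb2, and 11.4% of all genes. Nfkbiz had 93.8 and 115 CPM in knockout DI libraries, against 166 and 158 CPM in knockout untreated libraries. Both DI libraries were lower, but the log2 difference of -0.63 ± 0.23 had edgeR adjusted p = 0.105. Nfkb2 had 38.2 and 54.0 CPM with DI against 27.5 and 25.5 CPM untreated in knockout cells. Its difference of 0.80 ± 0.24 was close in size to that in wild-type cells and had edgeR adjusted p = 0.0588 and DESeq2 adjusted p = 0.0473. Rel was at 182 and 114 CPM with DI and 140 and 140 CPM without, so the DI libraries lay on both sides of the untreated ones. For Nfkbie the values were 18.0 and 20.1 CPM with DI and 20.6 and 19.1 CPM without, again overlapping. Bcl3 had 23.2 and 21.5 CPM with DI against 29.7 and 26.5 CPM untreated, both DI libraries below the untreated ones but not called (-0.33, edgeR adjusted p = 0.403). The summed level of the 8 macrophage markers was 3489 and 4156 CPM in knockout DI libraries and 5259 and 5374 CPM in knockout untreated libraries. Of these 8 markers 3 were called lower, where 4% of all genes were. They were Adgre1 (-0.75), Csf1r (-0.87) and Cd14 (-0.82). Their calls were lost in 6, 4 and 5 of 8 fits without 1 library, in that order. Values over these fits were -0.84 to -0.65 for Adgre1, -1.1 to -0.66 for Csf1r and -1 to -0.65 for Cd14. The part of this shift in the family's values was not tested.

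**Figure D2:**
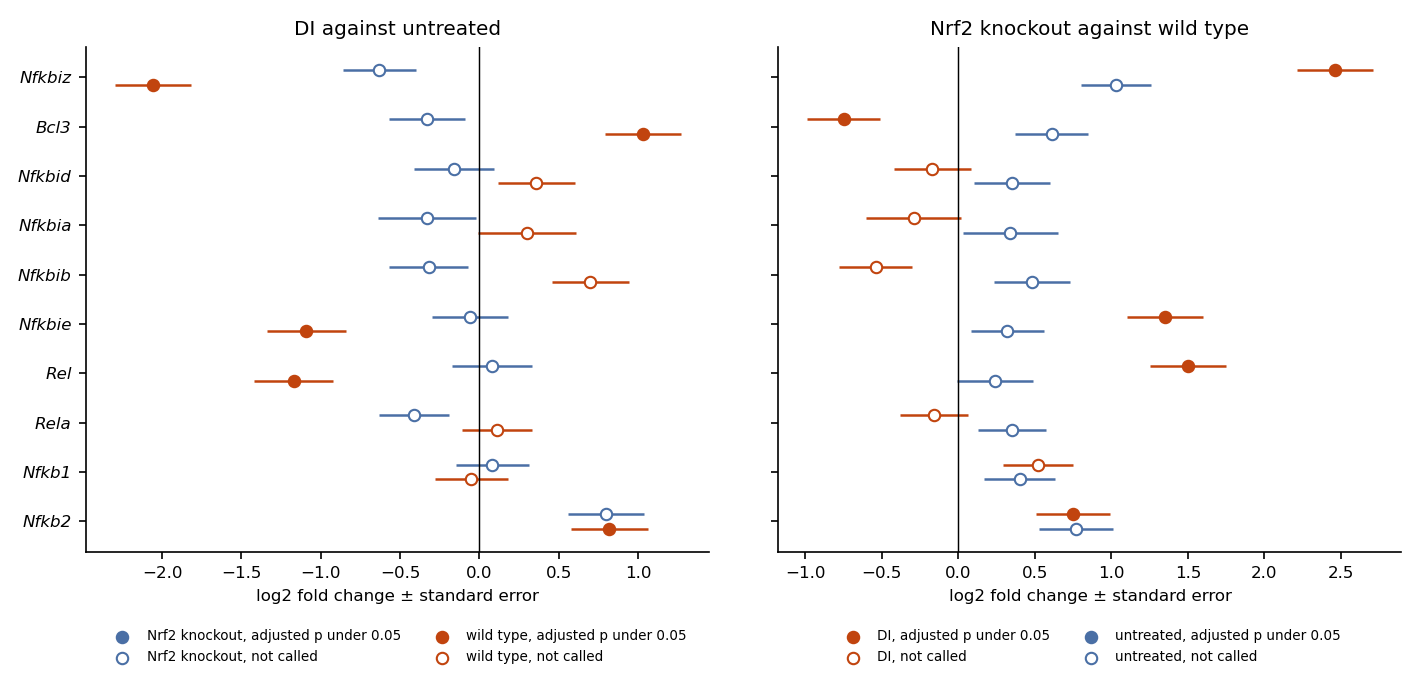
Log2 fold changes (horizontal axes, ± standard error of the fitted model) of the 10 members for DI against untreated in each genotype (left) and for Nrf2 knockout against wild type in each treatment (right); filled points have an adjusted p under 0.05. With DI against untreated, filled points are in wild type only, and on the right all untreated differences lie above 0, from 0.24 to 1.03.

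The difference between the genotypes in their response to DI was tested directly as an interaction (knockout response minus wild-type response). It passed for 3 members, against 7.55% of all genes. Nfkbiz was lowered less in knockout than in wild-type cells, by 1.43 ± 0.33 on the log2 scale (edgeR adjusted p = 0.0233). Bcl3 had an interaction of -1.36 ± 0.33 (adjusted p = 0.0294 in edgeR) and Rel of 1.26 ± 0.35 (edgeR adjusted p = 0.0495). Nfkbie, at 1.03 with edgeR adjusted p = 0.087, and Nfkbib, at -1.02 with edgeR adjusted p = 0.0908, did not pass. For Nfkb2 the interaction was -0.02, with a 95% interval of -0.76 to 0.71, and did not pass. The Nfkbiz call was lost without wild-type DI replicate 2 (adjusted p = 0.0623), wild-type untreated replicate 2 (0.0768) or 1 of the knockout untreated libraries (0.0929 and 0.0992), with values of 1.21 to 1.62 over the 8 such fits. The Bcl3 call was lost in 6 of these 8 fits and the Rel call in 7, with values of -1.57 to -1.16 for Bcl3 and 0.88 to 1.56 for Rel. No member passed in the fits that left out either knockout untreated library or wild-type untreated replicate 2, and 1 passed in those that left out knockout DI replicate 1 or either of the wild-type DI libraries. The Rel call was also lost with DESeq2-type size factors (1.24, edgeR adjusted p = 0.0508) and with upper-quartile scaling (1.12, edgeR adjusted p = 0.065).

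Knockout cells that received no DI already differed in level from wild-type cells in one direction across the family, although no single member was called by edgeR. All 10 members had both knockout libraries above both wild-type libraries, and 21.8% of all genes did so. The fitted log2 differences ran from 0.24 (Rel) to 1.03 (Nfkbiz) with a median of 0.38, while 48.9% of all genes were above 0 and the median over all genes was -0.01. Nfkbiz had 166 and 158 CPM in knockout untreated libraries, against 73.9 and 84.3 CPM in wild-type untreated libraries, a log2 difference of 1.03 ± 0.23. edgeR gave it adjusted p = 0.0715 and DESeq2 gave adjusted p = 0.00394, so that call depends on the tool (DESeq2 called 1.72% of all genes here). Next in size were Nfkb2, with 27.5 and 25.5 CPM against 14.5 and 16.5 CPM in wild type, and Bcl3, with 29.7 and 26.5 CPM against 21.0 and 15.8 CPM. edgeR called 0.605% of all genes in this comparison. At an unadjusted p under 0.05 there were 3 members, and 10.6% of all genes. All 10 differences rest on the same 4 libraries, and each kept its sign under every alternative scaling, filter, tool and left-out library tried. Of 6 stromal markers tested, 2 were called lower in the untreated knockout, where 0.524% of all genes were called lower. These were Col1a2 (-1.33) and Sparc (-1.49), at -1.64 to -0.93 and -1.86 to -1.21 over the fits without 1 library. The Col1a2 call was lost in 7 of those 8 fits and under both alternative scalings, and the Sparc call in 4 of the 8 fits. The summed neutrophil markers were at 266 and 309 CPM in knockout untreated libraries and 373 and 383 CPM in wild-type untreated libraries, with 0 of 7 called, and the part of these marker shifts in the family's values was not tested.

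With DI in both genotypes, 5 members differed between knockout and wild-type cells, 4 higher and 1 lower, against 21.2% of all genes (11.4% higher and 9.74% lower). Nfkbiz had 93.8 and 115 CPM in knockout DI libraries, against 21.8 and 16.3 CPM in wild-type DI libraries, a log2 fold change of 2.46 ± 0.25 (edgeR adjusted p = 3.87e-05). Rel was higher by 1.5 ± 0.25, at 182 and 114 CPM against 52.9 and 52.0 CPM (edgeR adjusted p = 0.00174). Nfkbie was higher by 1.35 ± 0.25, at 18.0 and 20.1 CPM against 8.80 and 6.34 CPM (edgeR adjusted p = 0.00302). These 3 calls were kept in all 8 fits that left out 1 library. Nfkb2 was higher by 0.75 ± 0.24 (edgeR adjusted p = 0.0445) and Bcl3 lower by 0.75 on the log2 scale (-0.75 ± 0.24, edgeR adjusted p = 0.0407). The Nfkb2 call was lost in 7 and the Bcl3 call in 5 of the 8 fits, at adjusted p up to 0.229 for Nfkb2 and 0.166 for Bcl3, and 3 members passed without wild-type DI replicate 1, knockout DI replicate 2 or either knockout untreated library. Both calls were also lost in a fit of the 4 DI libraries alone (edgeR adjusted p = 0.0887 for Nfkb2 and 0.0731 for Bcl3), and that of Nfkb2 with upper-quartile scaling (edgeR adjusted p = 0.0607). Of the stromal markers, 5 of 6 tested were lower in knockout DI cells, and their part in these values was not tested.

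Ordered by mean level, Nfkbiz was highest in knockout untreated cells (162 ± 5.22 CPM), then knockout DI (104 ± 15.1 CPM), wild-type untreated (79.1 ± 7.34 CPM) and wild-type DI cells (19.1 ± 3.91 CPM; SD, n = 2 each), and neighbouring groups in that order did not overlap. Nfkbie had the same order, at 19.9, 19.1, 15.9 and 7.57 CPM, with overlap between the 2 knockout groups only. Rel ran 148 CPM in knockout DI, 140 CPM in knockout untreated, 118 CPM in wild-type untreated and 52.5 CPM in wild-type DI cells, and its knockout groups overlapped as well. Bcl3 was highest in wild-type DI cells at 37.6 CPM, followed by 28.1 CPM in knockout untreated, 22.3 CPM in knockout DI and 18.4 CPM in wild-type untreated cells, with no overlap between neighbours. Nfkb2 was highest in knockout DI cells at 46.1 CPM, followed by 27.6 CPM in wild-type DI and 26.5 CPM in knockout untreated cells, which overlapped, and 15.5 CPM in wild-type untreated cells. As a description over the 8 libraries, which share the 4 groups, Pearson's r of log2 CPM was 0.98 between Nfkbiz and Nfkbie, 0.91 between Nfkbiz and Rel and 0.92 between Nfkbie and Rel. Bcl3 and Nfkbiz had r = -0.55.

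Genes were ranked by how like that of Nfkbiz their log2 CPM was over the 8 libraries. The ranking took genes with a mean of at least 10 CPM and a symbol that is no predicted model or clone name. The most like were Ifitm6 (r = 0.996), Tnfsf15 (0.994), Cxcl16 (0.991), Stap1 (0.990) and Ccnd2 (0.990). Tnfsf15 encodes the cytokine TL1A, Cxcl16 a chemokine and Ccnd2 cyclin D2. Cxcl16 had 144 and 170 CPM in knockout DI, 191 and 203 in knockout untreated, 70.8 and 57.8 in wild-type DI and 148 and 130 in wild-type untreated libraries. The most opposite patterns were those of Tfec (r = -0.996), Mindy1 (-0.995), Nqo1 (-0.993), Gclc (-0.992) and Srxn1 (-0.992). Nqo1, Gclc and Srxn1 are textbook Nrf2 targets that encode a quinone reductase, the catalytic subunit of glutathione synthesis and sulfiredoxin. Gclc had 50.2 and 46.6 CPM in knockout DI, 26.9 and 28.8 in knockout untreated, 1220 and 1891 in wild-type DI and 73.2 and 76.1 in wild-type untreated libraries. Thus Gclc ran through the 4 groups in exactly the reverse order of Nfkbiz. These correlations are across libraries that share groups, were picked as extremes among all ranked genes and carry no test.

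**Figure D3:**
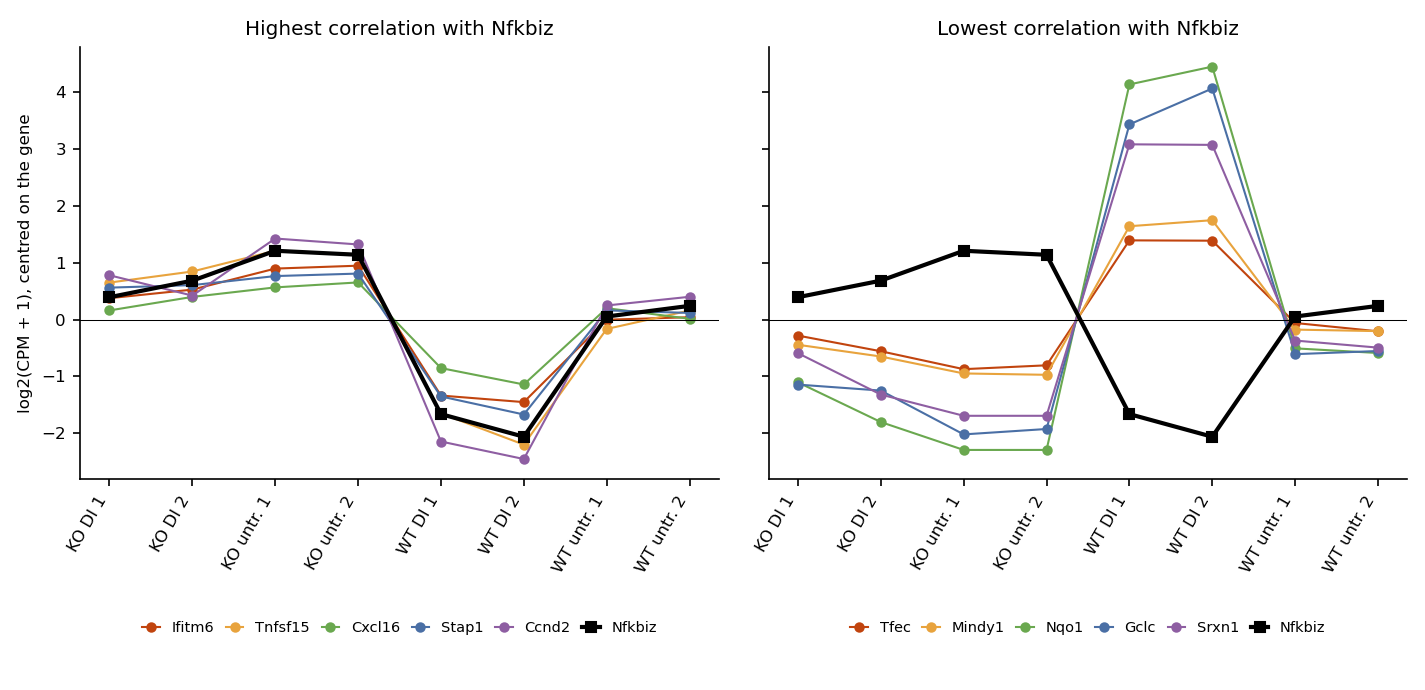
Log2(CPM + 1) centred on each gene's mean (vertical axis) in the 8 libraries for Nfkbiz (black) and the 5 genes with the highest (left) and lowest (right) correlation with it; lines only guide the eye between libraries. Nfkbiz is lowest in wild-type DI libraries and highest in knockout untreated libraries, and Nqo1, Gclc and Srxn1 run the other way.

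Libraries also differed by a sequence property that the labels do not explain, the richest run of A in a gene's coding sequence, which can matter where an oligo-dT primer starts the cDNA. The 950 genes whose richest stretch holds 12 A in 15 consecutive coding bases had a median deviation from the gene's mean log2 CPM of 0.24 and 0.18 in knockout DI, -0.02 and -0.09 in knockout untreated, -0.28 and -0.17 in wild-type DI and -0.02 and 0.15 in wild-type untreated libraries. Genes at 7 A had -0.25 and -0.15 in knockout DI and 0.17 and 0.12 in wild-type DI libraries. Rel has 12 such A, Bcl3 and Nfkbia 7, Nfkbib 8, Nfkb1 10 and the remaining members 9. With the trend removed, the Rel interaction was 0.69 (edgeR adjusted p = 0.247) and the Bcl3 interaction -0.94 (edgeR adjusted p = 0.106), so both calls ended. Bcl3 in knockout against wild-type DI cells was then -0.40 (edgeR adjusted p = 0.243), and Nfkb2 in wild-type DI cells 0.70 (edgeR adjusted p = 0.0705). Nfkbiz kept its calls, at -2.18 in wild-type DI cells, 1.68 for the interaction and 2.67 for knockout against wild-type DI cells (edgeR adjusted p = 0.000162, 0.0143 and 2.59e-05 in that order). Rel in wild-type DI cells was -0.88 (edgeR adjusted p = 0.0307) and remained called.

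**Figure D4:**
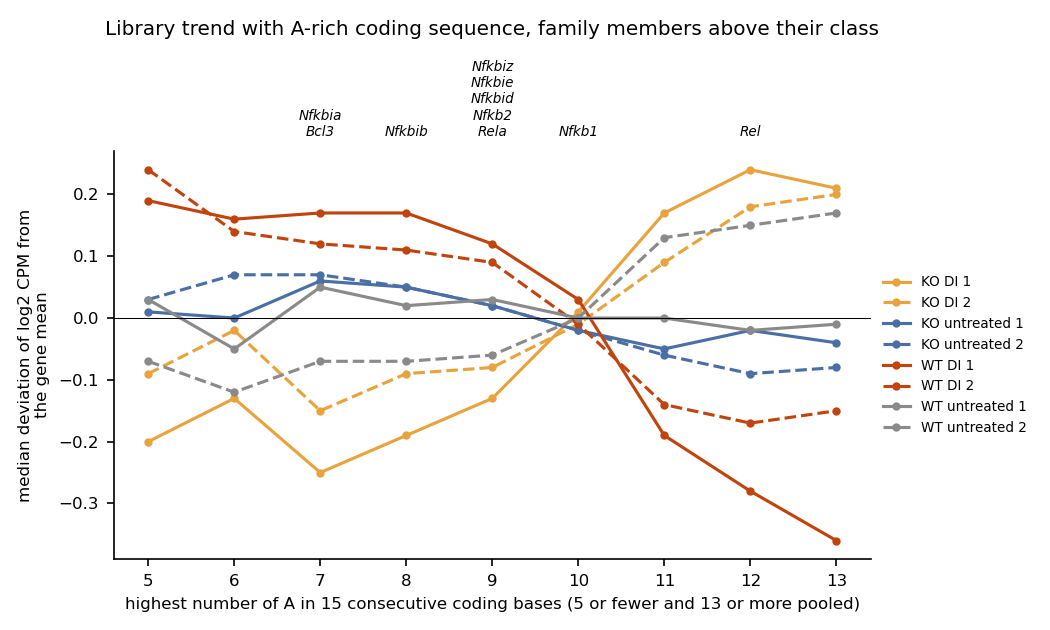
Median deviation of log2 CPM from the gene mean (vertical axis) by the highest number of A in 15 consecutive coding bases (horizontal axis), 1 line per library, with family members named above their class. At 12 A, where Rel lies, knockout DI libraries are at 0.24 and 0.18 and wild-type DI libraries at -0.28 and -0.17, and the class at 9, with Nfkbiz, lies nearer to 0.

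Other genes of the pathway were read from lists that were chosen with earlier results of these data known. Of 13 genes of the IκB kinase (IKK) complex and the kinases above it, DI raised 1 and lowered 2 in wild-type cells, where 15.2% of all genes were called, with a median log2 difference of -0.07 against -0.02 over all genes. Ikbkg, the regulatory subunit NEMO, was at 39.0 and 30.3 CPM with DI and 18.8 and 17.1 CPM untreated (0.95, edgeR adjusted p = 0.0442). Map3k8, the kinase TPL-2, changed by -1.20 and Ikbke, the IKK-related kinase IKKε, by -1.03. In knockout cells Ikbke alone of the 13 passed, where 8.48% of all genes did, at 11.1 and 12.1 CPM with DI against 25.9 and 40.0 CPM untreated (-1.52, edgeR adjusted p = 0.00639). Its direction was thus down in both genotypes. The Ikbkg and Ikbke calls in wild type were each lost without any 1 of the 4 wild-type libraries, that of Map3k8 without wild-type DI replicate 1 or untreated replicate 2, and that of Ikbke in knockout without knockout untreated replicate 2 (adjusted p = 0.0813). The Ikbkg call also ended with the A-rich trend removed (0.78, edgeR adjusted p = 0.0982).

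Between receptors and IKK, 18 adaptors and ubiquitin ligases were tested, of which 1 rose and 1 fell in wild-type DI cells (15.2% of all genes were called) and 2 rose in knockout DI cells (8.48% of all genes). Traf1 rose in both, by 0.85 in wild type and 1.03 in knockout. Birc2, the ligase cIAP1, fell by 0.81 in wild-type cells (a log2 fold change of -0.81). Traf3, a brake on the non-canonical NF-κB pathway, had 103 and 36.5 CPM in knockout DI libraries, against 11.9 and 17.3 CPM in knockout untreated libraries (2.24, edgeR adjusted p = 0.0112). The first DI library was far above the second, and without it the change was 1.31 and lost its call (adjusted p = 0.0734), as it did without either knockout untreated library. The Traf1 and Birc2 calls in wild type were each lost in 6 of 8 fits without 1 library and that of Traf1 in knockout in 4. In wild type Traf1 also lost its call with the A-rich trend removed (edgeR adjusted p = 0.116) and Birc2 in a fit of the 4 wild-type libraries alone (edgeR adjusted p = 0.0513). None of the 5 genes of the ligase that marks IκB for destruction was called in either genotype, nor were RelB and 3 further IκB-binding proteins.

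Of 13 feedback inhibitors tested, 2 rose and 1 fell in wild-type DI cells, where 15.2% of all genes were called, and 1 rose in knockout DI cells, where 8.48% were. Tnfaip3, the ubiquitin-editing inhibitor A20 and a standard NF-κB target, was at 120 and 89.6 CPM in wild-type DI libraries, against 40.7 and 27.2 CPM in wild-type untreated libraries (1.62 ± 0.34, edgeR adjusted p = 0.00761). In knockout cells it had 22.4 and 17.8 CPM with DI and 20.1 and 44.1 CPM without, and the interaction was -2.31 ± 0.48 (edgeR adjusted p = 0.0156). Tnip3, an A20-binding protein, had 41.0 and 37.5 CPM in wild-type DI libraries, against 119 and 153 CPM in wild-type untreated libraries (-1.79 ± 0.23, edgeR adjusted p = 0.00032). This fall was kept in all 8 fits without 1 library. Otud7b, the deubiquitinase Cezanne, rose by 0.78 in wild-type and by 1.29 in knockout cells. The Tnfaip3 call in wild type was lost without wild-type DI replicate 1 (adjusted p = 0.0513) or untreated replicate 2 (0.0861), and its interaction also without knockout untreated replicate 2 (0.0825). The Otud7b calls were lost in 5 such fits in wild type and 3 in knockout, and that in wild type also in a fit of the 4 wild-type libraries alone (edgeR adjusted p = 0.065).

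RNA-binding proteins that act on inflammatory mRNAs were tested as a list of 8, of which 1 fell in wild-type DI cells (15.2% of all genes were called) and 0 were called in knockout DI cells (8.48% of all genes). In knockout cells edgeR gave 1 of the 8, Zfp36l1, an unadjusted p under 0.05, against 26.4% of all genes. Zfp36l1, which promotes decay of mRNAs with AU-rich elements, had 154 and 121 CPM in wild-type DI libraries, against 1200 and 1268 CPM in wild-type untreated libraries. Both DI libraries lay far below, and the log2 fold change was -3.17 ± 0.28 (edgeR adjusted p = 2.08e-05), larger in size than that of Nfkbiz. In knockout cells the level was 1153 and 739 CPM with DI and 1677 and 1397 CPM without (-0.70, edgeR adjusted p = 0.106). The interaction was 2.47 ± 0.36 (edgeR adjusted p = 0.00286), and the wild-type and interaction calls were kept in all 8 fits without 1 library. Zc3h12a, the endonuclease Regnase-1 that is known to cleave Nfkbiz mRNA, differed by -0.12 in wild-type and -0.55 in knockout cells and did not pass.

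Genes known to need IκBζ after lipopolysaccharide or interleukin-1 were listed as 8, of which 4 had enough counts to test. Il6, Csf2 and Csf3 had too few counts, and Cebpd was not analysed here. In wild-type DI cells 2 of the 4 fell, where 8.68% of all genes did. In knockout DI cells none of the 4 passed, where 8.48% of all genes did. Il12b, the p40 subunit of interleukin-12, was thinly counted, with 4 and 13 counts in wild-type DI libraries, against 38 and 69 in wild-type untreated libraries (-2.0 ± 0.51, edgeR adjusted p = 0.0205). Knockout cells had 84 and 42 counts with DI against 14 and 19 untreated, a difference of 1.56 ± 0.46 that missed the threshold in edgeR (adjusted p = 0.0548) and passed in DESeq2 (adjusted p = 0.0474). The interaction was 3.56 ± 0.69 (edgeR adjusted p = 0.0105), kept in all 8 fits without 1 library, and the knockout direction was opposite to that of Nfkbiz. Ccl2, a monocyte-attracting chemokine, had 174 and 155 CPM in wild-type DI libraries, against 350 and 281 CPM in wild-type untreated libraries (-0.94, edgeR adjusted p = 0.0235). The wild-type call of Il12b was lost without either DI library or untreated replicate 2 (adjusted p up to 0.12), and that of Ccl2 without either DI library or untreated replicate 1 (up to 0.123). Lcn2 and Edn1 did not pass in either genotype.

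Of 25 widely used NF-κB target genes outside the family, 7 rose and 4 fell in wild-type DI cells, and 5 rose and 3 fell in knockout DI cells, with medians of 0.02 in wild type and -0.18 in knockout. Over all genes 6.51% were called higher and 8.68% lower in wild type, and 8.48% were called in either direction in knockout, with medians of -0.02 and 0. The 11 wild-type calls became 5 and 6 without wild-type DI replicates 1 and 2, and 7 without replicate 2 of either untreated group. The 8 knockout calls became 3 without knockout DI replicate 1, and 2 and 3 without knockout untreated replicates 1 and 2. Ptgs2, which encodes cyclooxygenase-2, had 39.7 and 38.1 CPM in wild-type DI libraries, against 7.43 and 5.63 CPM in wild-type untreated libraries (2.58 ± 0.25, edgeR adjusted p = 4.42e-05). It rose by 1.02 in knockout cells, a call lost without any 1 of the 4 knockout libraries and with upper-quartile scaling (edgeR adjusted p = 0.0507). Cd83, a surface protein of activated myeloid cells, had 2.83 and 4.38 CPM in wild-type DI libraries, against 18.4 and 17.1 CPM in wild-type untreated libraries (-2.26 ± 0.28, edgeR adjusted p = 0.000304). Cd83 also fell in knockout cells (-1.1, edgeR adjusted p = 0.0203), at -1.33 to -0.9 over the fits without 1 library. That Cd83 call was lost without knockout DI replicate 1 or either knockout untreated library. Tnfrsf1b, the TNF receptor TNFR2, rose by 1.89 and Tnfaip2 by 1.34 in wild-type cells. Tnfaip2 rose in knockout cells as well, by 1.47 (edgeR adjusted p = 0.00489), a call lost without knockout untreated replicate 1 (1.33). Cxcl2, a neutrophil-attracting chemokine, had 294 and 207 CPM in knockout DI libraries, against 63.7 and 31.8 CPM in knockout untreated libraries (2.40 ± 0.34, edgeR adjusted p = 0.00317). In wild-type cells Cxcl2 also rose, by 1.2 (edgeR adjusted p = 0.0275). That wild-type call was lost with the A-rich trend removed (1.07, edgeR adjusted p = 0.0533). It was also lost without any 1 of the 4 wild-type libraries, with values of 0.97 to 1.46 over the fits without 1 library. Cxcl10, an interferon-linked chemokine, fell by 1.37 in knockout cells (a log2 fold change of -1.37). In the interaction 3 of the 25 passed, all negative, where 2.59% of all genes were called in that direction, among them Tnfrsf1b at -2.47 (edgeR adjusted p = 0.00261).

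**Figure D5:**
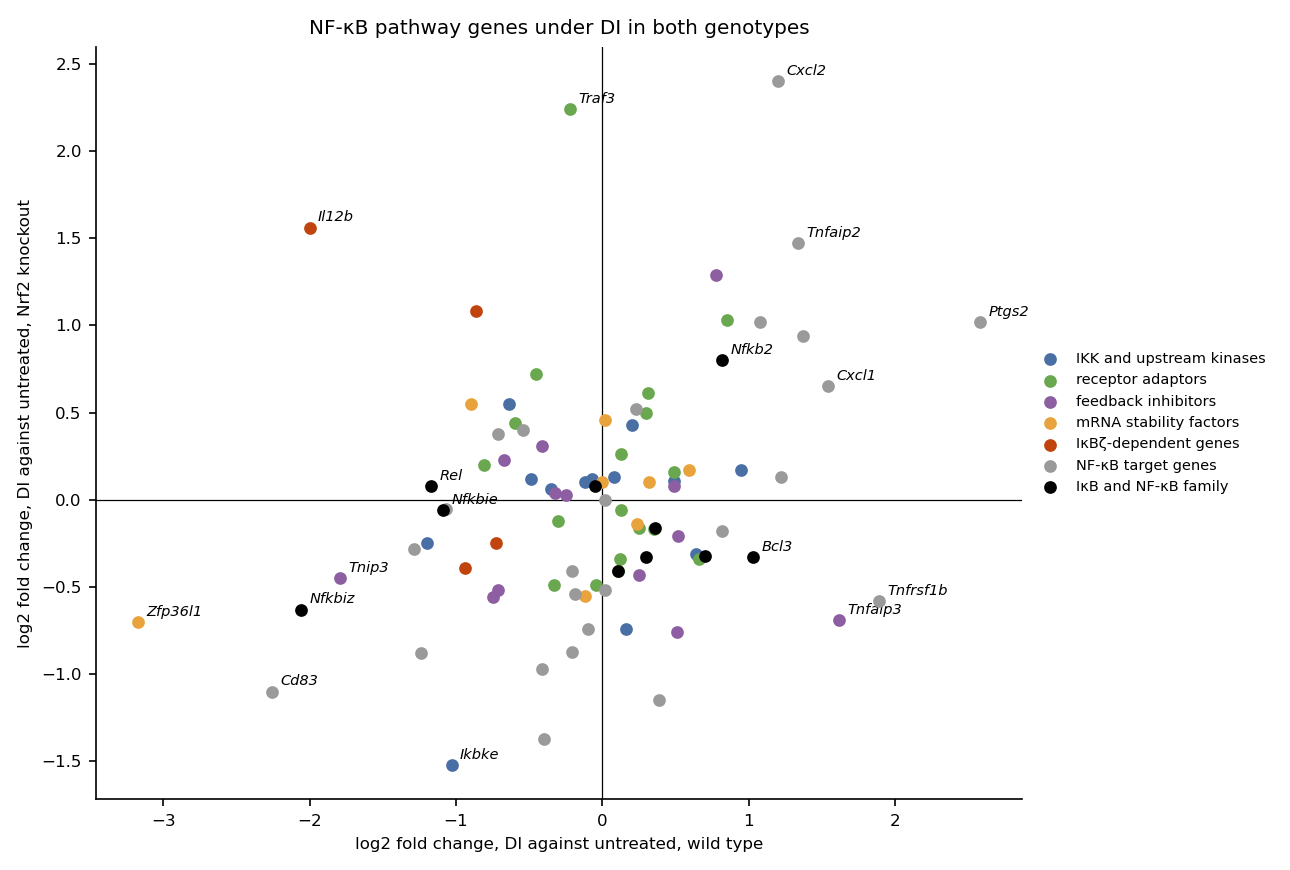
Log2 fold change with DI in Nrf2 knockout (vertical axis) against that in wild type (horizontal axis) for tested genes of the family (black) and 6 pathway lists (colours); each point is 1 gene. Zfp36l1 (-3.17) and Nfkbiz (-2.06) lie far left, with smaller falls in knockout that were not called. Il12b lies at -2.0 in wild type and 1.56 in knockout.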

How the data were processed

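The authors deposited 1 table of raw counts per Ensembl gene for the 8 libraries, with no normalization. Per the submitters' processing notes, STAR and HTSeq were used with the mm10 build, and DESeq2 is also listed, all with no version; a strand setting was not given in the sources used here. Per the labels' protocols, cDNA was primed with a barcoded oligo-dT primer and no molecular identifier is described, so intervals and tests cover read counts, not molecules. Identifiers were matched to GENCODE M21 (GRCm38), which gave 21745 symbols, and 420 genes without one, with 0.129% of counts, stayed in the tests. Genes were filtered with filterByExpr (minimum count 10 by group), scaled by TMM and fitted in R 4.3.3 by the robust quasi-likelihood method of edgeR 4.0.16 over all 8 libraries with 1 mean per group. DESeq2 1.42.0 was an alternative, beside other scalings, no filter, fits of 4 libraries, a replicate block and leaving out each library. CPM used the scaled library sizes, and correlations used log2 CPM with a prior count of 2. The A-rich offset entered each class's median deviation per library and was added with that trend known. Scripts were tested on simulated data with known changes.

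The members, lists and tests were chosen with earlier results of these data known. All members were named, as were up to 4 genes per list with the smallest p in a DI comparison and the 5 genes most and least like Nfkbiz. Bcl2a1b and the marker genes named as examples fall outside the DI comparisons of that rule and were chosen after their values were seen.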

Additional observations from a re-analysis of the deposited data

Results flagged for a closer look

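The interaction of DI and genotype (the knockout response minus the wild-type response, log2, edgeR's quasi-likelihood test) passed for 3 family members, at 1.43 for Nfkbiz, -1.36 for Bcl3 and 1.26 for Rel. Other pathway genes whose response differed between the genotypes by the same test had positive values of 2.46 for Traf3, 1.34 for Tnip3, 2.47 for Zfp36l1 and 3.56 for Il12b. Negative values were -2.31 for Tnfaip3, -1.26 for Zfp36, -1.56 for Ptgs2, -1.54 for Bcl2a1b, -2.47 for Tnfrsf1b and -1.96 for Acod1, the gene of the enzyme that makes itaconate. The Nrf2 targets Gclm, Gclc, Slc7a11 and Srxn1 had -3.69, -3.58, -2.88 and -2.72 in that order. Of the genes outside the family, Zfp36l1, Il12b, Tnfrsf1b, Acod1, Gclm, Gclc and Srxn1 kept their calls in all 8 fits without 1 library. Slc7a11 kept its call in 7 of 8, and without knockout untreated replicate 2 its value was -1.52 (edgeR adjusted p = 0.504). Tnfaip3 kept its call in 5 of 8, Traf3, Tnip3 and Ptgs2 in 3 of 8 (adjusted p up to 0.137 for Ptgs2, edgeR), and Zfp36 and Bcl2a1b in 2 of 8. With the A-rich trend removed, Zfp36 (edgeR adjusted p = 0.0673) and Bcl2a1b (edgeR adjusted p = 0.0628) also lost theirs.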

How the results depend on the processing

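Of 740 single-gene values of the members recomputed under alternatives, 660 kept their direction and side of the threshold, 51 lost a call, 6 gained one and 23 changed sign. Depth limits thinly counted genes, such as Nfkbie with 56 and 68 counts and Il12b with 4 and 13 counts in wild-type DI libraries. With wild-type or knockout libraries left out in turn, the count of called members was 1 to 5 for DI in wild type, 0 to 2 for the interaction, 3 to 4 for knockout against wild type with DI and 0 for DI in knockout and for untreated knockout against wild type. Over all genes these fits gave 804 to 1746, 238 to 933, 1208 to 2222, 104 to 1088 and 11 to 81 calls in that order, against 1683, 836, 2345, 940 and 67 in all 8 libraries. Without the low-count filter 1697 genes were called for DI in knockout, 1597 for the interaction and 397 for untreated knockout against wild type, and DESeq2 called 191 in the last of these. Both settings called 1 member for DI in knockout (Nfkb2) and 1 for untreated knockout against wild type (Nfkbiz), and removing the A-rich trend also called 1 for DI in knockout. A fit of the 4 DI libraries alone called 3 members in knockout against wild type. Upper-quartile scaling shifted the median of all genes by -0.1 for DI in knockout and -0.11 for the interaction. It gave 374 higher and 609 lower genes for DI in knockout (497 and 443 with TMM), 447 and 438 for the interaction (549 and 287 with TMM) and 1091 and 1254 for knockout against wild type with DI (1266 and 1079 with TMM).

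Signs that changed belonged to small, uncalled values. Under upper-quartile scaling Nfkb1 and Rel were each at -0.02 for DI in knockout and Nfkb1 at -0.01 for the interaction. With the A-rich trend removed, Rela was at -0.01 for DI in wild type, Nfkbie at 0.07 and Rel at -0.19 for DI in knockout, Nfkb2 at 0.22 for the interaction, and Nfkbia at 0.05, Nfkbid at 0.04 and Rela at 0.05 for knockout against wild type with DI. Over the fits without 1 library, DI in wild type ranged from -0.19 to 0.72 for Nfkbia and -0.21 to 0.15 for Nfkb1, and DI in knockout from -0.13 to 0.02 for Nfkbie, -0.05 to 0.20 for Nfkb1 and -0.30 to 0.38 for Rel. The interaction ranged from -0.07 to 0.29 for Nfkb1 and -0.29 to 0.21 for Nfkb2, and knockout against wild type with DI from -0.70 to 0.22 for Nfkbia. The causes were not tested.

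Samples of different groups share only a replicate number, with correlations of their deviations of 0.16, 0.02, 0.02 and -0.02. With the replicate number as a block, 5 members were called for DI in wild type, 2 for the interaction, 4 for knockout against wild type with DI and 0 in the remaining comparisons, with 1674, 845, 2309, 931 and 67 genes called in all. Rel lost its interaction call (adjusted p = 0.0553, edgeR) and Nfkb2 its call in knockout against wild type with DI (adjusted p = 0.054, edgeR).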
